A study of Homo sapiens with 2 samples.

Results

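The cells were RMG1, a cultured line of ovarian cancer, sorted by the ALDEFLUOR assay, which marks living cells by the activity of aldehyde dehydrogenase (ALDH). The study isolated ALDH+ cells as cancer stem-like cells and asked which genes they express more than ALDH- cells do. Both populations came from this 1 line, grown in a medium with fetal bovine serum, and the labels name no treatment and no difference but the sort. The RNA of both was hybridized as pairs to 2 arrays of 60-base probes, with ALDH+ cells in Cy5 on the first array and in Cy3 on the second, and ALDH- cells in the other dye. Described here are 57 genes of amino acid metabolism, of the transcription factor ATF4 and of endoplasmic reticulum (ER) stress, out of 27193 gene names on the arrays. They were taken as all gene probes whose printed gene name was on the list, which gave 71 probes. The genes were selected on their function with the log2 ratios of these same arrays already known, so the ratios are a description of the sorted cells and support nothing further. Of the 57 genes, 23 encode enzymes of amino acid metabolism, 7 encode amino acid transporters, 15 encode stress signalling proteins and 12 encode proteins of ER folding and degradation.

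Each population had 1 RNA extract, because both arrays carried the same pair of extracts. No test between the populations was therefore possible, no p-value is given, and any standard deviation (SD) between the 2 arrays is technical. Ratios are the log2 of the intensity in ALDH+ cells over that in ALDH- cells, so that 1 is 2-fold and 0.585 is 1.5-fold higher in ALDH+ cells. All intensities given below are normalized and were computed from the ratio and the mean intensity of a probe. Which population is called brighter or dimmer therefore restates the sign of the ratio, and scanner signals before normalization can have another order. Of the 57 genes, 55 had a probe well above background on both arrays in at least one population, and 54 had it in both populations. The exceptions were PRODH2, which encodes hydroxyproline dehydrogenase, and BCAT1, the cytosolic branched-chain aminotransferase, neither of which was well above background in either population. No spot of these genes was saturated. Of 5 aldehyde dehydrogenases that could underlie the sort 4 were measured, and ALDH1A1 had no measured probe. ALDH1A3 had a log2 ratio of 0.61, ALDH1A2 of 0.20 and ALDH2 of -0.17. ALDH3A1 had 0.18, with opposite signs on the arrays. All 10 epithelial marker genes were measured, with a median log2 ratio of 0.02 and PAX8 at -0.74. Of 10 leukocyte markers 5 were measured, with log2 ratios from -0.19 to 0.45, and none of 9 fibroblast markers was.

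Cells adjust amino acid supply through ATF4, a transcription factor whose translation increases when the initiation factor eIF2 is phosphorylated. The kinase PERK (EIF2AK3) does this when unfolded proteins collect in the ER, and other kinases do it when amino acids or heme run short. ATF4 induces amino acid enzymes, transporters, aminoacyl-tRNA synthetases and feedback regulators such as TRIB3, CHAC1 and PPP1R15A. A separate arm, through ATF6 and through IRE1 (ERN1) with its target XBP1, induces ER chaperones and the machinery that removes misfolded proteins. Proline is made by PYCR1 and degraded in mitochondria by PRODH, so that both enzymes set its turnover.

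The probes of the 9 genes that passed 1.5-fold, and of PYCR1, the counterpart of PRODH, are listed next so that each value can be traced to its target. The first 30 of the 60 bases of each probe are shown in lower case, 5′ to 3′, as the array files give them. Positions are those of the whole probe on hg19, as in the same files. For PRODH and PYCR1 the brightest probe comes first, and a dimmer measured probe of the same gene follows. The span of the PPP1R15A probe is longer than 60 bases, so its coordinates hold a gap. Where the probes lie in exons or untranslated regions was not analysed here.
PRODH (chr22:18900438-18900497, minus strand): tacctgcctgggacagccactggaaacttt
PRODH second probe (chr22:18906965-18907024, minus strand): gcagcggaagttcaatgtggagaagccgct
PYCR1 (chr17:79890331-79890390, minus strand): ccctgcctgtgtgggagggtggttactgtg
PYCR1 second probe (chr17:79893242-79893301, minus strand): tcatcctggatgaaataggcgccgacattg
CTH (chr1:70905041-70905100, plus strand): atgtttgcctctgaaggaggtgagatttgt
CBS (chr21:44473319-44473378, minus strand): gctgatcgactttgtgtctctgttgtctaa
SLC7A1 (chr13:30084093-30084152, minus strand): caaggcaaatgattttgtgtttcttgatga
SLC7A5 (chr16:87863907-87863966, minus strand): tttcagtcgttgtgcttttttgttttgtgc
TRIB3 (chr20:378107-378166, plus strand): acacttggggtccacaatcccaggtccata
CEBPB (chr20:48808989-48809048, plus strand): cacgtgtaactgtcagccgggccctgagta
VLDLR (chr9:2653897-2653956, plus strand): tctaaacaaataatacccccgtcggaatgg
PPP1R15A (chr19:49378127-49378901, plus strand): accctgagactcccctaaaggccagaaagg

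ALDH+ cells had more PRODH, which starts proline degradation, and more PPP1R15A, the phosphatase subunit that reverses eIF2 phosphorylation. They had less of both transsulfuration enzymes, CBS and CTH, of the amino acid transporters SLC7A5 and SLC7A1, and of the stress signalling genes TRIB3, CEBPB and VLDLR. These 9 were all that passed 1.5-fold: 2 of the 55 measured genes were higher in ALDH+ cells, against 1.51% of all 13704 measured genes, and 7 were lower, against 4.58%. In RNA of sorted populations, more RNA per cell and a larger share of cells with the RNA cannot be told apart. Only PRODH passed 2-fold, which 0.212% of all genes did upward and 0.708% downward. Under median centring of the arrays in place of loess, 3 genes were lower past 1.5-fold, namely CTH, SLC7A1 and SLC7A5, and the same 2 were higher. The share of higher genes among those past 1.5-fold was 22.2% with loess and 40% with median centring, and over all genes it was 24.8% and 56.0%.

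**Figure D1:**
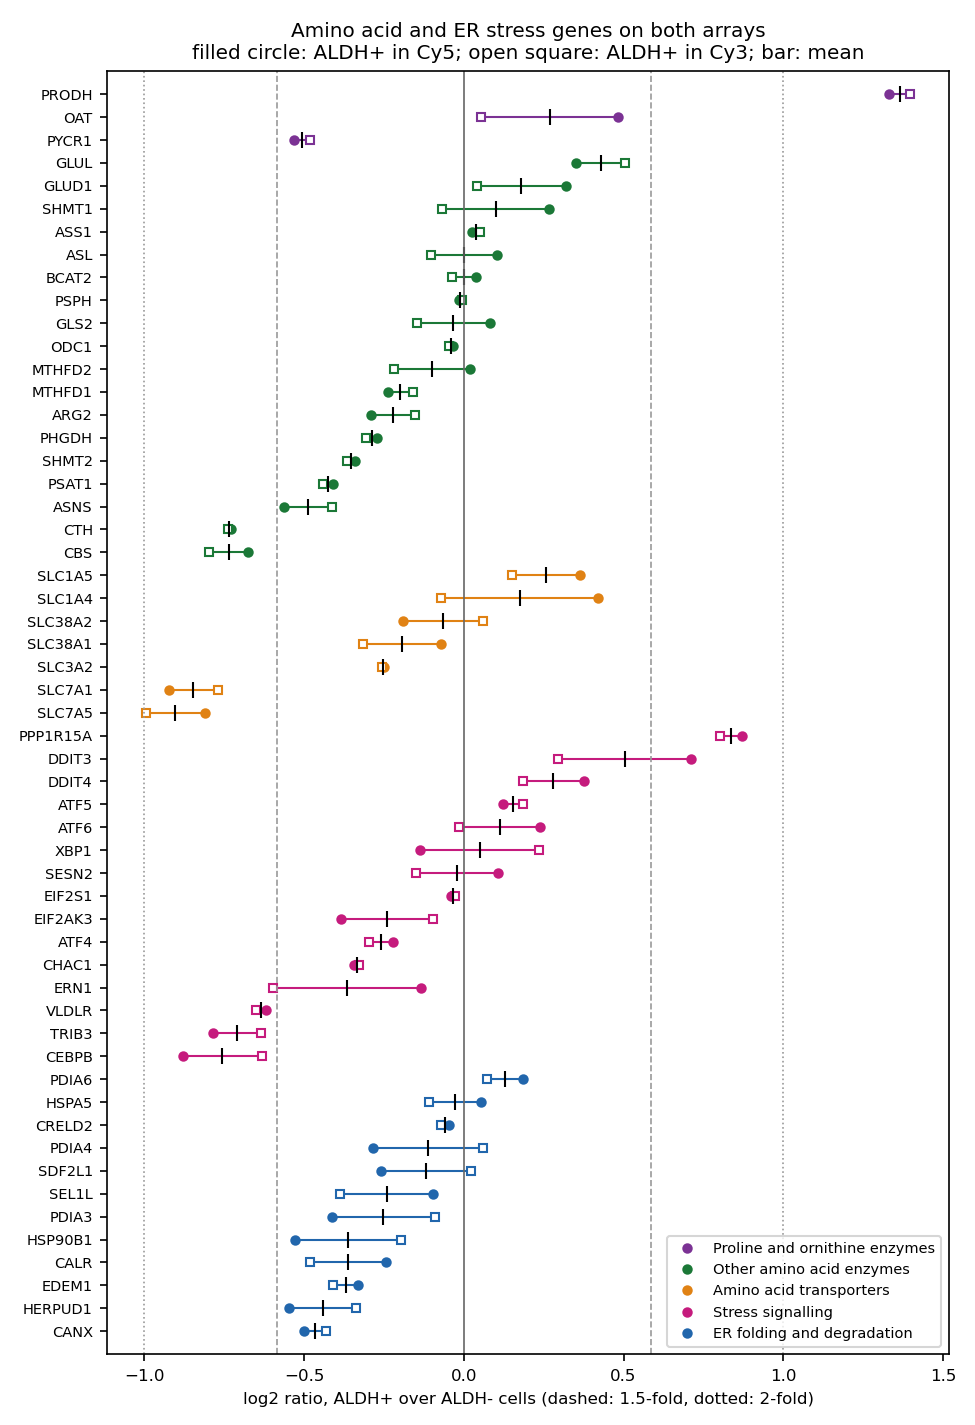
The log2 ratio of ALDH+ to ALDH- cells (horizontal axis) is plotted for the 55 measured genes, with ALDH+ cells in Cy5 as filled circles, in Cy3 as open squares and the mean as a bar; dashed lines mark 1.5-fold and dotted lines 2-fold. PRODH stands alone beyond 2-fold at 1.33 and 1.40, while 31 genes lie below 0 and 11 above 0 on both arrays.

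The plot of log2 ratios by gene shows that both dye orders mostly placed a gene on the same side of 0. Of the 55 genes, 31 were lower in ALDH+ cells on both arrays, against 36.1% of all measured genes, and 11 were higher on both, against 33.7%. The other 13 genes, or 23.6%, had opposite signs on the arrays, as did 30.2% of all genes. The median log2 ratio over the 55 genes was -0.12, whereas it was -0.0024 over all genes, and median centring turned the first to 0.07 and the second to 0.07. The median distance of a gene from 0 was 0.25 here and 0.16 over all genes.

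Among the proline enzymes the degrading enzyme was higher in ALDH+ cells and the last enzyme of synthesis was lower. PRODH had an intensity of 1799.6 in ALDH+ cells and 715 in ALDH- cells on the first array, and 1731 and 657 on the second. On both arrays ALDH+ cells were the brighter population. The log2 ratio was 1.36 ± 0.047 (SD, 2 arrays), or 2.58-fold, and 7 of the 13704 measured genes had a higher one. A second PRODH probe, which was dimmer, gave 0.50 and 1.21 on the arrays, with a mean of 0.86. PYCR1, the reductase that completes proline synthesis, had intensities of 14301 in ALDH+ and 20680 in ALDH- cells on the first array, and of 13988 and 19533 on the second. ALDH+ cells were thus the dimmer population on both arrays, with a log2 ratio of -0.51 ± 0.036 (SD, 2 arrays). The second PYCR1 probe, for another transcript record, gave the opposite sign at 0.20, and median centring brought the bright probe to -0.15. OAT, ornithine aminotransferase, which links ornithine to proline and glutamate, had intensities of 1868 and 1336 on the first array and of 1528 and 1472 on the second. It was higher in ALDH+ cells at 0.48 with ALDH+ cells in Cy5 and only at 0.05 in Cy3, so most of its mean of 0.27 came from one dye order. Of further enzymes of proline metabolism, ALDH18A1, which starts proline synthesis, had a log2 ratio of -0.05, PYCRL of 0.11, and ALDH4A1, which completes proline degradation, of -0.05.

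Both transsulfuration enzymes, which pass the sulfur of homocysteine to cysteine, were lower in ALDH+ cells. CBS, cystathionine beta-synthase, had intensities of 23621 in ALDH+ and 37738 in ALDH- cells on the first array, and of 21462 and 37270 on the second. CTH, cystathionine gamma-lyase, had 1353 and 2244 on the first and 1272 and 2122 on the second. For both genes ALDH+ cells were the dimmer population on both arrays after normalization. The log2 ratio was -0.74 ± 0.085 for CBS and -0.73 ± 0.0061 for CTH (SD, 2 arrays), so that ALDH- cells had 1.67-fold and 1.66-fold more. CTH stayed past 1.5-fold under all 12 processing alternatives, and CBS, the brighter of these probes, did under 11, with -0.32 under median centring. GCLM, the modifier subunit of the enzyme that uses cysteine to start glutathione synthesis, had a log2 ratio of -0.61. GCLC, the catalytic subunit of the same enzyme, had only -0.16.

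ASNS, asparagine synthetase and a classical ATF4 target, had intensities of 3939 in ALDH+ and 5823 in ALDH- cells on the first array and of 4113 and 5472 on the second. It was lower in ALDH+ cells on both arrays, with a log2 ratio of -0.49, and did not reach 1.5-fold. The enzymes that make serine from glycolysis and pass its carbon to folate were also mostly on the lower side, with a median of -0.20 for 7 genes and of -0.03 after median centring. PSAT1, the aminotransferase of serine synthesis, had a log2 ratio of -0.43, PHGDH, its first enzyme, of -0.29, and PSPH, its last, of -0.01. Of the serine hydroxymethyltransferases, the mitochondrial SHMT2 had -0.35 and the cytosolic SHMT1 had 0.10 with opposite signs on the arrays. The folate enzymes MTHFD1 and MTHFD2 had -0.20 and -0.10, and 5 of these 7 genes were lower on both arrays.

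Of the genes of glutamate and glutamine metabolism on the list, GLUL, glutamine synthetase, was higher in ALDH+ cells. It had intensities of 678 in ALDH+ and 532 in ALDH- cells on the first array and of 659.9 and 465 on the second, which is a log2 ratio of 0.43 with ALDH+ cells brighter on both. GLUD1, glutamate dehydrogenase, had 0.18, with 0.32 and 0.04 on the arrays. GLS2, the liver-type glutaminase, had -0.03 with opposite signs on the arrays. The brightest probes of the urea cycle enzymes ASS1 and ASL lay near 0, with 0.03 and 0.05 for ASS1 and 0.10 and -0.10 for ASL on the arrays, while a second ASS1 probe gave 0.39 and 0.23. ARG2, the mitochondrial arginase, had a log2 ratio of -0.22, and ODC1, which starts polyamine synthesis, had -0.04. BCAT2, the mitochondrial branched-chain aminotransferase, had 0.04 and -0.04 on the arrays, and so no direction. The 21 measured enzymes, proline genes included, had a median log2 ratio of -0.04, with 13 lower and 8 higher in ALDH+ cells, and the median was 0.11 after median centring.

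**Figure D2:**
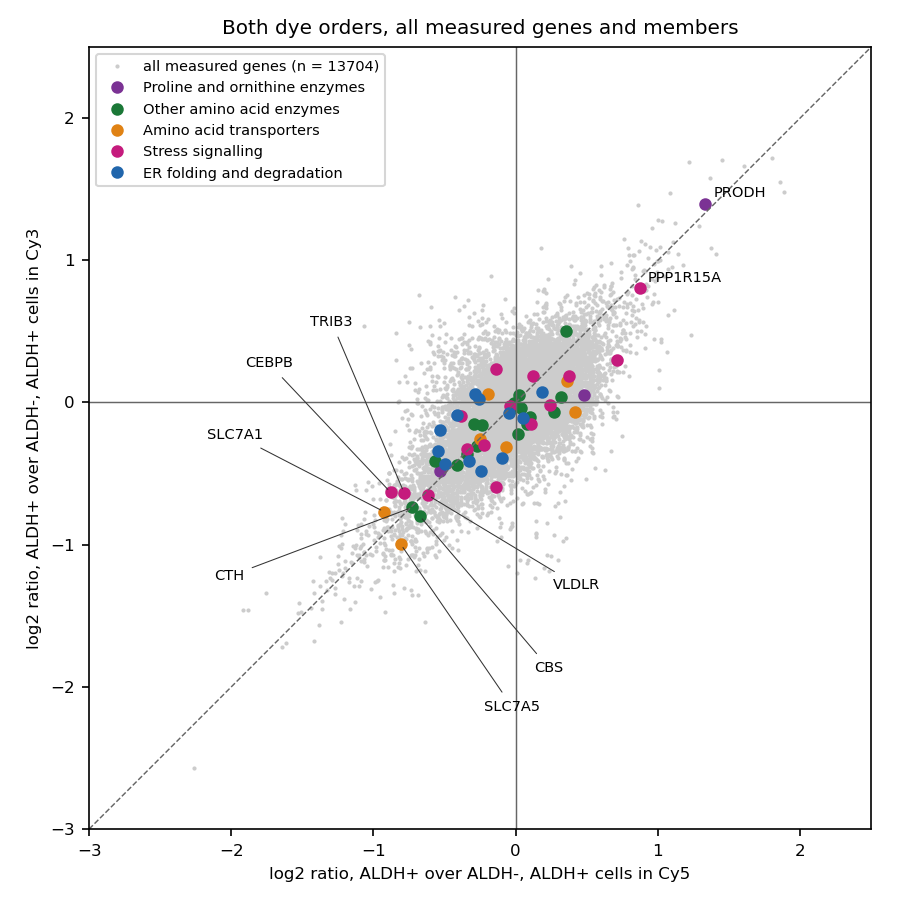
Each point is a gene, with its log2 ratio of ALDH+ to ALDH- cells with ALDH+ cells in Cy5 (horizontal axis) against that with ALDH+ cells in Cy3 (vertical axis); grey points are all 13704 measured genes, colored points the 55 genes by role, and the dashed line marks equal values. The 9 named genes, PRODH, PPP1R15A and 7 on the lower side, lie near the dashed line, whereas most of the 55 lie within the grey cloud.

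The scatter of the first array against the second places the 9 genes past 1.5-fold along the line of equal values. A dye effect moves a gene off that line, and its size, taken as the first ratio minus the second divided by the number of arrays, had a median of 0.077 for the 55 genes and of 0.079 for all genes. The highest among the 55 was 0.24, for SLC1A4, and the highest among all genes was 0.80.

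Of the transporters, 2 of 7 were lower in ALDH+ cells past 1.5-fold, and none was higher past it. SLC7A5 (LAT1), the light chain that carries large neutral amino acids, had intensities of 4093 in ALDH+ and 7171 in ALDH- cells on the first array and of 3465 and 6909.6 on the second. ALDH- cells were brighter on both arrays, with 1.87-fold more SLC7A5 and a log2 ratio of -0.90 ± 0.13 (SD, 2 arrays). SLC7A1 (CAT1), a carrier of arginine and other cationic amino acids, had 666 and 1263 on the first array and 661 and 1127 on the second, with a log2 ratio of -0.85 ± 0.11 (SD, 2 arrays). Both stayed past 1.5-fold under all 12 alternatives. SLC3A2 (4F2hc), the heavy chain that pairs with SLC7A5, had a log2 ratio of -0.25 with -0.25 and -0.26 on the arrays, and 0.0011 after median centring. The glutamine carriers differed less in size: SLC1A5 (ASCT2) had 0.26, SLC38A1 had -0.19 and SLC38A2 had -0.07. The SLC38A2 value had opposite signs on the arrays, and a second SLC38A2 probe of close brightness gave -0.58 and -0.45, with a mean of -0.52. SLC1A4 (ASCT1), a carrier of alanine, serine and cysteine, had 0.42 and -0.07 on the arrays. The median of the 7 transporters was -0.19, with 5 lower and 2 higher, and 0.02 after median centring. Outside the list, SLC7A2, another cationic amino acid carrier, had a log2 ratio of -1.23 with -1.27 and -1.20 on the arrays. SLC7A11, the cystine carrier, had 0.23 with 0.45 and 0.01.

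**Figure D3:**
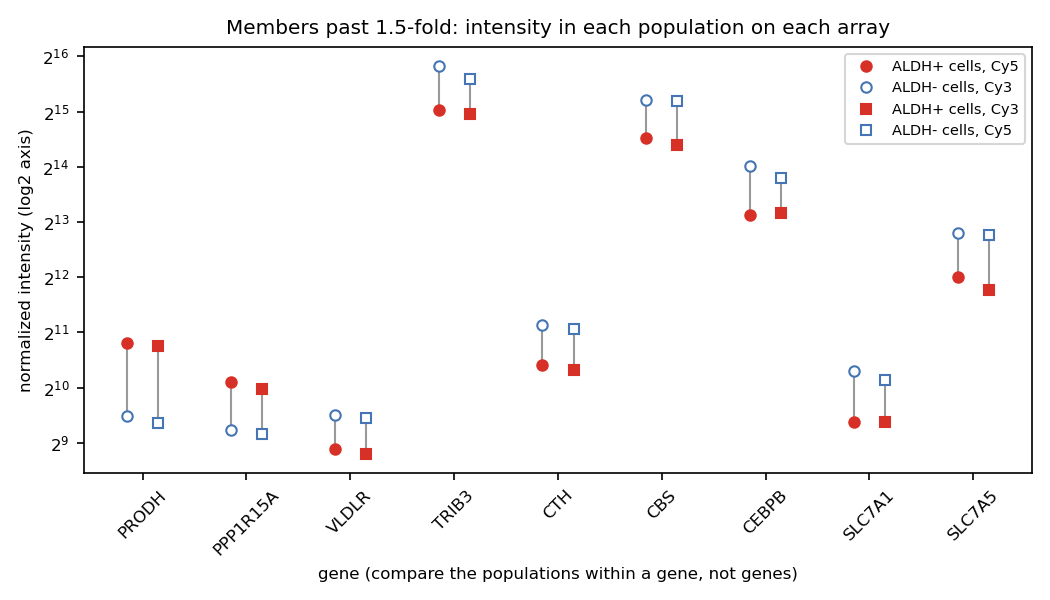
Normalized intensity on a log2 axis is plotted for the 9 genes past 1.5-fold, with ALDH+ cells as filled and ALDH- cells as open symbols, circles for the array with ALDH+ cells in Cy5 and squares for that with ALDH+ cells in Cy3. For PRODH and PPP1R15A both filled symbols lie above both open symbols, and for the other 7 genes they lie below.

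As the plot of intensities shows, each of these 9 genes had the same direction on both arrays. Of all measured genes, 33.7% were higher and 36.1% lower in ALDH+ cells on both. The 9 were taken by their mean ratio on these same arrays, which read 1 extract of each population. Their agreement between the arrays is therefore no further support. Intensities compare the populations within a gene, since probes differ in how well they hybridize.

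Among the stress signalling genes, regulators downstream of ATF4 lay on both sides of 0. PPP1R15A (GADD34) had intensities of 1099 in ALDH+ and 601 in ALDH- cells on the first array and of 999 and 572 on the second. ALDH+ cells had 1.79-fold more on average, with a log2 ratio of 0.84 ± 0.049 (SD, 2 arrays). DDIT3 (CHOP), a transcription factor that ATF4 induces, had 693 and 423 on the first array and 569 and 464 on the second. Its log2 ratio was 0.71 on the first array and 0.30 on the second, so its mean of 0.50 was higher in ALDH+ cells but passed 1.5-fold only with ALDH+ cells in Cy5. DDIT4 (REDD1), an inhibitor of mTORC1, had 0.28, and ATF5, a factor related to ATF4, had 0.15.

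TRIB3, a pseudokinase that binds ATF4 and CHOP and restrains them, was lower in ALDH+ cells. Its intensities were 33549 in ALDH+ and 57797 in ALDH- cells on the first array and 31658 and 49151 on the second. The log2 ratio was -0.71 ± 0.11 (SD, 2 arrays), or 1.64-fold more in ALDH- cells, and -0.26 after median centring. CEBPB, a transcription factor that can pair with ATF4, had 8983 and 16516 on the first array and 9127 and 14151 on the second, with a log2 ratio of -0.76 ± 0.17 (SD, 2 arrays). It had -0.43 after median centring. VLDLR, a lipoprotein receptor that ATF4 also induces, had 474 and 727 on the first array and 446 and 701 on the second. Its log2 ratio was -0.63 ± 0.024 (SD, 2 arrays), the nearest to 1.5-fold of the genes past it, and -0.55 after median centring. The nearest genes that did not reach it were PYCR1 at -0.51 and DDIT3 at 0.50. CHAC1, which degrades glutathione, had 1171 in ALDH+ and 1485 in ALDH- cells on the first array and 1149 and 1442 on the second. Its log2 ratio was -0.34, with close values on the arrays, while a dimmer CHAC1 probe gave 0.02. SESN2, an inhibitor of mTORC1, had -0.02 with opposite signs on the arrays.

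ATF4 itself was among the brightest of these probes and was slightly lower in ALDH+ cells with loess. It had intensities of 57238 in ALDH+ and 66794 in ALDH- cells on the first array and of 59152 and 72727 on the second. ALDH+ cells were dimmer on both, with a log2 ratio of -0.26, and median centring turned the sign to 0.22. XBP1 had 8169 and 8974 on the first array and 8971 and 7626 on the second, so the populations changed order with the dyes and the mean of 0.05 has no direction. The arrays do not separate the spliced from the unspliced XBP1 message. Of the ER stress sensors, EIF2AK3 (PERK) had a log2 ratio of -0.24 and ATF6 had 0.11 with opposite signs on the arrays. ERN1 (IRE1) had -0.14 and -0.60, and its probe rose clearly over background in ALDH- cells on both arrays but in ALDH+ cells on 1. EIF2S1, the alpha subunit of eIF2, had -0.03. The median over the 15 signalling genes was -0.03, with 9 lower and 6 higher in ALDH+ cells, and 0.04 after median centring.

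Of the 12 genes of ER folding and degradation, 11 had a log2 ratio below 0 with loess and 8 of them were lower in ALDH+ cells on both arrays, but none passed 1.5-fold, and 8 of the 12 were above 0 after median centring. Of all 13704 measured genes, 6907 were below 0 with loess, 36.1% were lower on both arrays and 8382 were above 0 with median centring. The median of the 12 genes was -0.25 with loess and 0.08 with median centring. The canonical marker HSPA5 (BiP), the main ER chaperone, had intensities of 3163 in ALDH+ and 3045 in ALDH- cells on the first array and of 2874 and 3097 on the second. The populations changed order with the dyes, and the log2 ratio was -0.03. HSP90B1 (GRP94), another chaperone, had -0.36, and CALR and CANX, the lectins that hold glycoproteins during folding, had -0.36 and -0.47. CANX was lower on both arrays at -0.50 and -0.43, but its dimmer second probe gave 0.20. The disulfide isomerases PDIA3, PDIA4 and PDIA6 had -0.25, -0.11 and 0.13, and a second PDIA3 probe had 0.12. SDF2L1 and CRELD2, both ER stress-inducible proteins of the ER lumen, had -0.12 and -0.06.

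The 3 genes of ER-associated degradation, which returns misfolded proteins to the cytosol, were all lower on both arrays, and all stayed below 0 after median centring. HERPUD1, a membrane protein of this machinery, had intensities of 20921 in ALDH+ and 30539 in ALDH- cells on the first array and of 21996 and 27804 on the second. Its log2 ratio was -0.44, and -0.05 after median centring. EDEM1, which trims the mannose of misfolded glycoproteins, had -0.37, and SEL1L, the partner of the ubiquitin ligase HRD1, had -0.24.

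How far the scaling moved a gene differed with its brightness. The 7 genes with a mean log2 intensity of 14 or more had a median log2 ratio of -0.44 with loess and of -0.05 with median centring, whereas the 12 between 8 and 10 had -0.01 and 0.07. Over all genes, median centring left a median of 0.41 at 14 or more, made of 1.43 on the first array and -0.61 on the second, whereas loess left -0.02. The 7 bright genes were ATF4, TRIB3, CBS, CALR, HSP90B1, HERPUD1 and PYCR1, so their size on this scale depends on that choice.

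**Figure D4:**
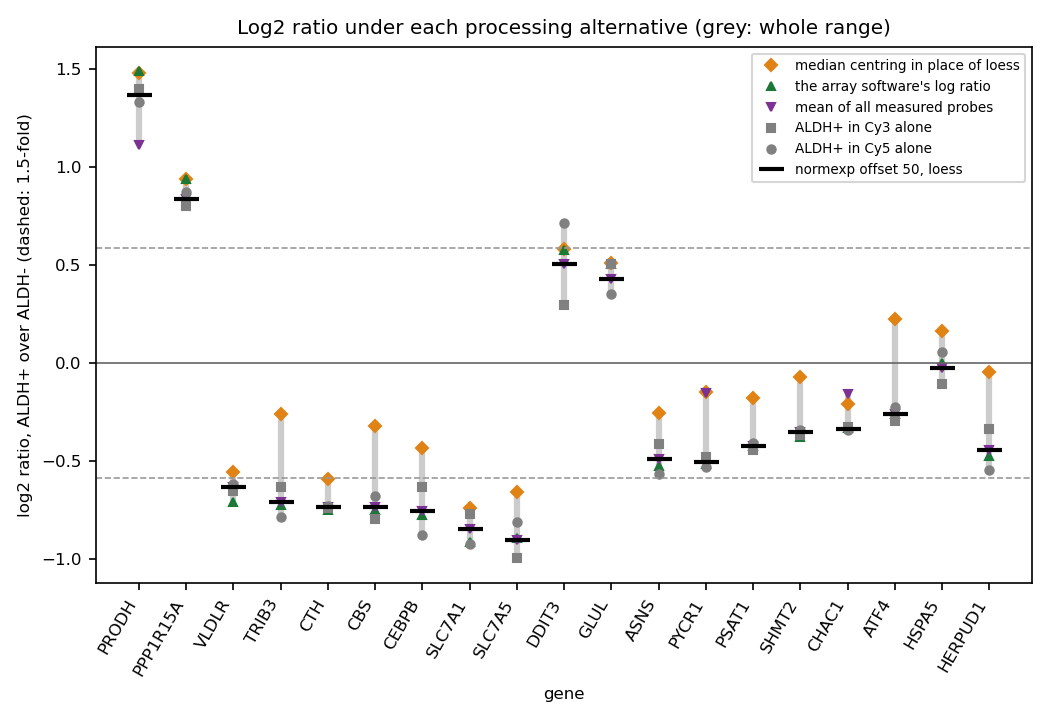
The log2 ratio of ALDH+ to ALDH- cells (vertical axis) is plotted for 19 genes under the processing alternatives, with the reported value as a black bar, single settings as colored symbols, the whole range of alternatives as a grey bar, and 1.5-fold as dashed lines. PRODH, PPP1R15A, CTH, SLC7A1 and SLC7A5 stay beyond the dashed lines under every alternative, and median centring moves bright genes such as TRIB3, CBS and ATF4 upward, the last from -0.26 to 0.22.

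The plot of alternatives shows that 5 genes stayed past 1.5-fold under all 12: PRODH, PPP1R15A, CTH, SLC7A1 and SLC7A5. Of the 55 genes, 32 kept the sign of their mean under all of them, 21 lower and 11 higher in ALDH+ cells. Neither count was made over all measured genes, so both only describe the genes of the list. Not all 12 alternatives were independent, since the joined table held the same values as the software's ratio. CTH, SLC7A1, SLC7A5 and PPP1R15A each had a single probe, well above background in both populations. The changes of filter and the mean of all probes therefore could not alter the values of these genes. Of 10 genes with several measured probes, 5 had probes of opposite sign, namely PYCR1, SLC38A1, CHAC1, CANX and PDIA3. Cross-hybridization with related sequences, such as processed pseudogenes of these genes, was not tested.

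Known control elements of ER stress and ATF4 genes were read in the 250 bases before each gene's start, because 11 of the 12 ER genes had a mean below 0 with loess. The sequences are those of RefSeq on GRCh38.p14, with an entry for 51 of the 57 genes. PRODH, PYCR1, PSPH, SHMT2, BCAT2 and PDIA3 were without one. Searched on both strands were the ER stress element ERSE (CCAAT, then 9 bases of any kind, then CCACG), its short form ERSE-II (ATTGG, any 1 base, then CCACG), the element UPRE (TGACGTGG) and the C/EBP-ATF response element CARE (TGATGNAA). ERSE was in 7 of the 51 genes and in 0.092% of 27305 gene symbols, and ERSE-II was in 2 of the 51 and in 0.066% of the symbols. The list was chosen to hold ER stress genes, so these shares describe that choice and are no result. No ERSE match overlapped an ERSE-II match. The windows that hold these elements follow, in the direction of each gene, with the matched letters in capitals. A match in the opposite direction reads CGTGG first for both elements.
HSPA5 ERSE (chr9:125241371-125241429, minus strand): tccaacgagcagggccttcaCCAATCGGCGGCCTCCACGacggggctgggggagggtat
HSP90B1 ERSE (chr12:103930196-103930254, plus strand): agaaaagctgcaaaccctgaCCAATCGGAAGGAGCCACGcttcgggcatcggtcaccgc
HSP90B1 ERSE (chr12:103930301-103930359, plus strand): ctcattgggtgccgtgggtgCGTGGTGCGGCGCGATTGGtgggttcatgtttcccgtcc
CALR ERSE (chr19:12938364-12938422, plus strand): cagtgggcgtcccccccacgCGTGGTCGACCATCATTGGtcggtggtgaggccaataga
CANX ERSE (chr5:179698758-179698816, plus strand): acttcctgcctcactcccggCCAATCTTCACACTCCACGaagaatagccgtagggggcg
PDIA6 ERSE (chr2:10812833-10812891, minus strand): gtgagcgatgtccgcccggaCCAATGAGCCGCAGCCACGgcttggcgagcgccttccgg
CRELD2 ERSE (chr22:49918534-49918592, plus strand): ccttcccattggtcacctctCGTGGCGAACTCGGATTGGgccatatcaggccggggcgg
XBP1 ERSE (chr22:28800583-28800641, minus strand): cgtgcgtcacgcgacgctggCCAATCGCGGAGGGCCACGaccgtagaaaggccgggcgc
HERPUD1 ERSE-II (chr16:56932005-56932055, plus strand): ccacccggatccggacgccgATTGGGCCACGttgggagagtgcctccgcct
SDF2L1 ERSE-II (chr22:21642094-21642144, plus strand): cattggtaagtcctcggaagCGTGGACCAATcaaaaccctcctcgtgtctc

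With loess, the 7 genes with ERSE letters had a median log2 ratio of -0.06, from -0.47 for CANX to 0.13 for PDIA6. Of them 5 were lower and 2 higher in ALDH+ cells. With ERSE-II added, 7 of 9 genes were on the lower side with loess, as were 6907 of all 13704 measured genes. The median of the 9 was -0.12. HSPA5, SDF2L1 and XBP1 had opposite signs on the arrays. After median centring only CANX at -0.33 and HERPUD1 at -0.05 were below 0. Above 0 were HSPA5 (0.16), HSP90B1 and CALR (0.08), PDIA6 (0.33), CRELD2 (0.11), XBP1 (0.34) and SDF2L1 (0.20). HSPA5, CANX and XBP1 all carry the letters, and their log2 ratios were -0.03, -0.47 and 0.05. A match is a description of the sequence and not of a bound site.

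CARE letters, which are short, were in 5 of the 51 genes and in 3.886% of all symbols, and UPRE letters were in none of the 51 and in 0.78% of all. A gene without a match lacks only these letters in this window. The windows of the 4 measured genes with CARE letters are given for comparison with their ratios, and a match on the other strand reads TTNCATCA.
ASNS CARE (chr7:97872449-97872496, minus strand): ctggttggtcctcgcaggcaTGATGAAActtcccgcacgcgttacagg
CHAC1 CARE (chr15:40953242-40953289, plus strand): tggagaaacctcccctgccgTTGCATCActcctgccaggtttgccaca
HERPUD1 CARE (chr16:56931946-56931993, plus strand): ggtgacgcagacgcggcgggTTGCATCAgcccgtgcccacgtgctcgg
SLC1A5 CARE (chr19:46784884-46784931, minus strand): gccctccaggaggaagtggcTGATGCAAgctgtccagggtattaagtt

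With loess, ASNS, HERPUD1 and CHAC1 of these 4 genes were on the lower side at -0.49, -0.44 and -0.34. SLC1A5 was on the higher side at 0.26. The median was -0.39. Of all 13704 measured genes, 6907 were below 0 with loess. After median centring the values were -0.26 for ASNS, -0.05 for HERPUD1, -0.21 for CHAC1 and 0.37 for SLC1A5. A dimmer CHAC1 probe gave 0.02 with loess.

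Further genes of the same pathways were also measured. All 18 aminoacyl-tRNA synthetases on the list, many of which ATF4 induces, were measured. With loess their median log2 ratio was -0.15, with 12 of them below 0. After median centring the median was 0.02, with 11 of them above 0. Of all 13704 measured genes, 6907 were below 0 with loess and 8382 above 0 after median centring. Among the synthetases IARS, the isoleucyl-tRNA synthetase, was lower past 1.5-fold at -0.59. Of 58 other genes of amino acid metabolism and the ATF4 response 48 were measured, with a median of -0.05, and of 0.08 after median centring. Past 1.5-fold among them were SLC7A2, GCLM and GPT2, an alanine aminotransferase, on the lower side, and ATF3, a stress-induced transcription factor, on the higher side at 1.00. Of 57 other ER stress genes 52 were measured, with a median of -0.08 and 34 of them below 0 with loess. After median centring their median was 0.11, with 31 of them above 0. DNAJC3, a cochaperone that inhibits PERK, was the one past 1.5-fold, at -0.71.

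Some early response genes, which handling and sorting of cells can induce, were higher in ALDH+ cells, as PPP1R15A was. Of 25 such genes 23 were measured, 14 were above 0 and 9 below, and 8 had opposite signs on the arrays. Past 1.5-fold 7 were higher in ALDH+ cells, against 1.51% of all measured genes, and none was lower, against 4.58%. The 7 were FOS, JUN, EGR2, ATF3, DUSP1, BTG2 and GADD45B. ATF3 is the same gene that was named above among the other genes of the ATF4 response. The median log2 ratio of the 23 was 0.18, and 0.28 after median centring. JUN had 0.89, DUSP1 had 0.93 and FOS had 0.71. The part of early response in the values of PPP1R15A and DDIT3 was not tested.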

How the data were processed

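ALDH+ and ALDH- RMG1 cells were compared on 2 two-color arrays in a dye swap. The arrays carried the same 2 extracts and were counted as 1 replicate. Samples were grouped by the ALDEFLUOR labels, and the direction was taken from the dyes in the labels, both orders of which the methods also give. The cell line is RMG1 in the labels and in the results, but AMOC2 in the methods. The authors deposited unnormalized scanner files, which hold a spot's intensity and that of its local background in each dye, together with the log10 ratio that Feature Extraction made after its own background and dye correction. The file header gives that software as version 10.7.3.1 and the labels as 8.5.1.1. A deposited table of the series joins the log10 ratios, and its signal columns were not used.

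Mean signals were corrected with normexp (offset 50) on the median local background and normalized by loess within each array (limma 3.58.1, R 4.3.3). The sign was turned to ALDH+ over ALDH- cells, outlier and control spots were left out, spots of a probe were averaged, and ratios were averaged over both arrays. Normalized intensities were computed per population from the ratio and the mean intensity of a probe. A probe counted as measured when over 50% of its spots were well above background in one population on both arrays, and a gene was its brightest measured probe. Later steps used Python 3.11.15, numpy 2.4.6 and pandas 2.3.3. Steps were tested on simulated data.

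The genes and lists were chosen with earlier results of these data known. By rule, all genes of the list are accounted for, those past 1.5-fold, the proline genes and ASNS, ATF4, DDIT3, TRIB3, CHAC1, XBP1 and HSPA5 with both arrays, and of the other lists the genes past 1.5-fold. Other genes of those lists that are named, and further genes of the list with intensities, were chosen after their values were seen. All 55 measured accessions carry the same symbol in RefSeq. The 12 alternatives were an offset of 10, no background correction, subtraction of the background with a floor of 1, background from negative controls, median centring, the software's ratio, the joined table, no filter on dim probes, a filter in both populations, the mean of all probes, and each array alone. Precision is limited by the number of arrays, and the spread between sorts cannot be estimated. Some genes of the other lists are not reported here.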

Additional observations from a re-analysis of the deposited data

How the results depend on the processing

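Over the 12 alternatives the 55 genes gave 659 values, of which 85 moved beyond the technical SD. Of the 659 values, 37 had the opposite sign, none of them of a gene past 1.5-fold. A value from a single array could not count as moved, because it always lies closer to the mean of both arrays than that SD. The joined table repeated the software's ratio. The count of 85 is therefore no measure of stability. Median centring left 3 genes lower past 1.5-fold and brought the median log2 ratio of amino acid enzymes to 0.11, of transporters to 0.023, of stress signalling genes to 0.043 and of ER folding and degradation genes to 0.082. The mean of all measured probes brought transporters to -0.25 and ER folding and degradation genes to -0.12. With each array alone, 2 to 3 genes were higher and 7 to 8 lower past 1.5-fold, 1 passed 2-fold, and medians ran from -0.15 to -0.015 for enzymes, from -0.26 to -0.19 for transporters, from -0.14 to -0.097 for stress signalling and from -0.27 to -0.15 for ER genes. Over all measured genes, 207 were higher and 628 lower past 1.5-fold with loess, 511 and 402 with median centring, and 561 and 1257 with the software's ratio. The cause was not tested. The median signal of negative control spots was 127 to 135 in Cy3 and 43.1 to 45.1 in Cy5, which limits ratios of dim probes such as ERN1. No paired analysis was possible because each population had 1 extract, so the ratios, which pair the populations within an array, have no second pair.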
